A study of Mus musculus with 4 samples.

Results

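Polyamine metabolism was examined through 10 genes named for their roles in the pathway: Aoc1, Odc1, Azin1, Oaz1, Amd1, Srm, Sms, Sat1, Smox and Paox. They were found by Entrez gene ID and mouse symbol among the 27179 genes of the deposited table, and all 10 had values in every library. The set was put forward with the comparison of the genotypes in view, Aoc1 for the size and firmness of its difference. For that reason the differences of the 10 genes are given as values with their errors, with no p-value, and a count of them past a threshold is a description that supports nothing.

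The study sequenced RNA of the kidney medulla, the inner kidney with its loops of Henle and collecting ducts, from mice at postnatal day 14 on a mixed C57BL/6 background. Knockout mice (KO) carried Actr3-fl/fl together with Cdh16-Cre, and wild-type controls (WT) are labelled Actr3 WT. RNA came from 2 animals of each genotype, 1 library each, and 36482238 to 40784436 reads per library were recovered from the table. Actr3 encodes Arp3, which belongs to the Arp2/3 complex that starts branched actin filaments. Cdh16 encodes the kidney-specific cadherin of tubule epithelium, so cells that never use its promoter keep the floxed gene intact. Whether the controls carried the floxed allele or Cre is not stated in the labels.

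Actr3 itself had 12587 and 12480 normalized reads in the libraries labelled KO, against 8065 and 7275 in those labelled WT. A count over the whole gene includes exons that Cre leaves in place, so it does not check the deletion. The groups are therefore called KO-labelled and WT-labelled, and every direction below rests on those labels. Markers of the medullary segments were present in all 4 libraries: Aqp2, the water channel of principal cells, had 6961 and 4576 normalized reads in KO-labelled and 27437 and 34871 in WT-labelled libraries. Xist was at 27873.3 or more in every library and Ddx3y, a Y-linked gene, at 15.9 or less, so no library stood apart by sex, which bears on Odc1 because androgen raises it in the mouse kidney. In whole tissue, fewer cells of a type and less RNA per cell cannot be told apart.

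Putrescine, spermidine and spermine are small positively charged molecules that bind RNA and DNA and are needed for growth. Ornithine decarboxylase makes putrescine from ornithine, and the aminopropyl transferases lengthen it to spermidine and spermine with groups taken from decarboxylated S-adenosylmethionine. Breakdown runs through acetylation and oxidation, which release hydrogen peroxide and reactive aldehydes, and diamine oxidase, the product of Aoc1, removes putrescine outside the cell as well as histamine. Much of the control is exerted on translation and protein turnover, which read counts do not show.

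Sequences were read for the elements through which this control is known to act and for the gene with the widest difference. The first is the stretch of Oaz1 coding sequence at which ribosomes shift frame when polyamines are high, so that full-length antizyme is made (chr10:80828280-80828309, plus strand, GRCm38). Its capitals mark the stop codon that ends the first reading frame. The second is a short upstream frame of 6 codons before its stop in the 5′ untranslated region of Amd1 (chr10:40302155-40302175, minus strand, GRCm38), known in mammals as a polyamine-sensed brake on translation. Its capitals mark the start and the stop codon. Both are written 5′ to 3′ as DNA from GENCODE transcripts.
Oaz1 frameshift site: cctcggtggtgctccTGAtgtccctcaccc
Amd1 upstream reading frame: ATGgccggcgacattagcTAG

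RefSeq lists 2 transcription starts for Aoc1, 9731 bases apart on the plus strand of chromosome 6. The 250 bases before each are shown because the counts cover the whole gene and do not say which start was used. They are chr6:48895005-48895254 before the first start and chr6:48904736-48904985 before the second, from RefSeq on GRCm38.p6. Capitals mark a match to TGANTCA, the core that AP-1 factors are known to bind, 131 bases before the second start.
Aoc1 start 1: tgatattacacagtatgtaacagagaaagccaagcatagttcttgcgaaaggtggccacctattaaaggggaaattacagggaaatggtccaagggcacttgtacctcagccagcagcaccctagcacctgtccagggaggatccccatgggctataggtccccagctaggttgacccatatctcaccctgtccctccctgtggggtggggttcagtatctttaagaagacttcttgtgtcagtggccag
Aoc1 start 2: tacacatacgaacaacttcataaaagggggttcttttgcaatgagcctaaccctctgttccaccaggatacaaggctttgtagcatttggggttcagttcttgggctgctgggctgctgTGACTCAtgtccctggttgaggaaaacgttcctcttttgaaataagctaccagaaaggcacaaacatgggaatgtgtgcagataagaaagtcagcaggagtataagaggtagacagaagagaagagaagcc

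Of the 10 genes, 8 had an entry in the promoter table, all but Srm and Azin1. They had 11 windows of 250 bases before to 50 after a start, and 6 motifs were searched on both strands. Srm, Azin1 and sequence outside these windows were not searched. TGANTCA was found in 1 of the 11 windows, that of the second Aoc1 start, and in 7.81% of all 32851 windows. CACGTG, the E-box that MYC binds, was found in 1, that of Sms, and in 7.15% of all windows. GGGCGG, a core of GC boxes, stood in 7 of the 11, against 35.7% of all. TGANNNNGC, a core of antioxidant response elements, stood in 6 (41.3% of all), TATAAA, the TATA box, in 1, that of Oaz1 (13.6%), and TTCCNGGAA, bound by STAT factors, in none (1.15%). A match is a string of letters and not a shown site, and motifs with N can overlap one another.

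The oxidases and the acetyltransferase of polyamine breakdown were higher in KO-labelled libraries, by 1.23-fold to 8.10-fold, whereas the ornithine decarboxylase gene and its antizyme differed by little. Azin1, the antizyme inhibitor gene, was lower. As a description only, 5 of the 10 lay past the line drawn for all genes (limma adjusted p under 0.05) on the higher side and 1, Azin1, on the lower side. The 5 were Aoc1, Srm, Smox, Paox and Sat1, the last of which lay short of it without KO replicate 1 or without a variance trend. Of the 16253 genes tested 26.3% were higher and 24.9% lower by the same rule, 51.2% in all. The comparison was known when the genes were put forward, so this count is no test of them and nothing is read from it. The KO-labelled and WT-labelled values did not overlap for 8 of the 10, as for 78.5% of all genes tested. All 10 had a mean of at least 10 and were tested, with a median log2 difference of 0.23 beside 0.0029 for all genes tested.

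**Figure D1:**
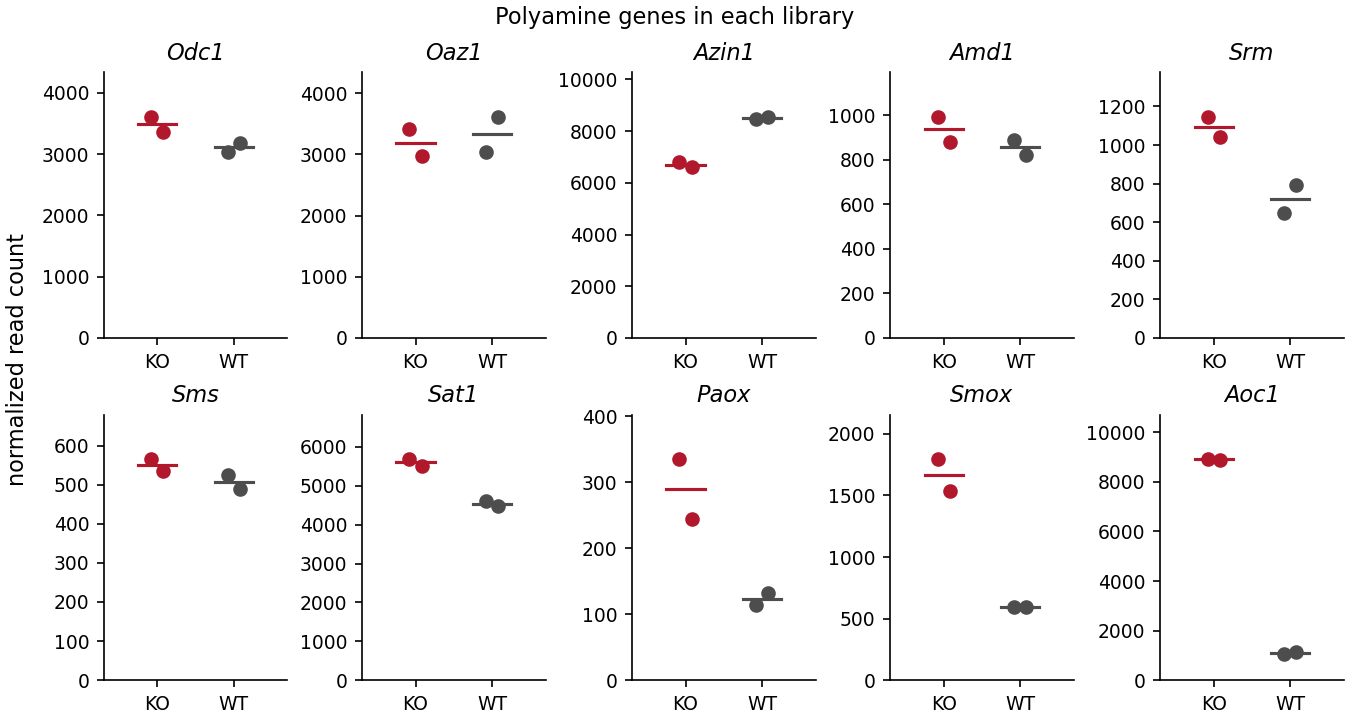
Normalized read counts of the 10 polyamine genes in each library, with 1 panel per gene and its own axis from 0. Points are single libraries, KO-labelled in red and WT-labelled in grey, and lines are group means. The groups overlap for Oaz1 and Amd1 and lie apart for the other 8 genes, farthest for Aoc1.

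Odc1 encodes ornithine decarboxylase, the first enzyme of the pathway (Entrez 18263, chr12:17544808-17551502, GRCm38, as for all gene spans here). It had 3612 and 3355 normalized reads in KO-labelled libraries, against 3034 and 3185 in WT-labelled ones. The groups did not overlap, but the log2 difference of 0.16 (SE 0.0815) was little larger than the 0.11 between the 2 KO-labelled libraries. Each log2 difference here was taken as KO-labelled minus WT-labelled after adding 1 to the values, which understates the change of low genes.

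Oaz1 encodes antizyme, which binds single ornithine decarboxylase chains and hands them to the proteasome (Entrez 18245, chr10:80826656-80829290). Its 3415 and 2967 normalized reads in KO-labelled libraries lay within and below the 3034 and 3618 of the WT-labelled ones. The log2 difference was -0.06 (SE 0.114), and across the other ways of processing it ranged from -0.18 to 0.07. Replicates differed by 0.20 in KO-labelled and by -0.25 in the WT-labelled group (replicate 1 minus 2), more than the groups did. The read count says nothing of how often ribosomes shift frame at the site printed above.

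Azin1 encodes a relative of ornithine decarboxylase that has no enzyme activity and captures antizyme (Entrez 54375, chr15:38487430-38519294). Its counts were 6816 and 6594 normalized reads in KO-labelled libraries, against 8488 and 8565 in WT-labelled ones. The groups lay apart by more than their replicates did, with means of 6705 ± 157 in KO-labelled and 8527 ± 54.4 in WT-labelled libraries (SD, n = 2 each). The log2 difference was -0.35 (SE 0.0723), the only negative one among the 10 genes apart from that of Oaz1. Set against Oaz1 per exon length, Azin1 stood at 0.816 and 0.909 in KO-labelled libraries and at 1.14 and 0.968 in WT-labelled ones.

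Amd1 encodes S-adenosylmethionine decarboxylase, which supplies the aminopropyl groups (Entrez 11702, chr10:40287458-40302188). It had 995 and 883 normalized reads in KO-labelled and 888 and 824 in WT-labelled libraries. The groups overlapped, with a log2 difference of 0.13 (SE 0.114). Amd2, a near-identical copy that could take some of its reads, had at most 2.95 normalized reads in any library. The handling of reads that match both genes is not known, so this count does not show how many Amd1 lost.

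Srm encodes spermidine synthase, which adds the first aminopropyl group to putrescine (Entrez 20810, chr4:148591513-148594619). Its values were 1148 and 1039 normalized reads in KO-labelled libraries, against 650 and 791 in WT-labelled ones. No library of a group reached the other group, and the mean was 1.52-fold higher (log2 difference 0.61, SE 0.131). The WT-labelled replicates differed by -0.28. Sms encodes spermine synthase, which adds the second aminopropyl group (Entrez 20603, chrX:157443851-157492287). It had 566 and 534 normalized reads in KO-labelled and 524 and 489 in WT-labelled libraries. The ranges were next to each other without overlap, and the log2 difference of 0.12 (SE 0.125) was no larger than its error. Per exon length Srm stood 7.62 and 7.31 times as high as Sms in KO-labelled libraries and 4.66 and 6.08 times as high in WT-labelled ones.

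Sat1 encodes the acetyltransferase that marks spermidine and spermine for export or oxidation (Entrez 20229, chrX:155213126-155216449). Its counts were 5694 and 5515 normalized reads in KO-labelled libraries, against 4603 and 4484 in WT-labelled ones. Replicates were close and the groups apart, with a log2 difference of 0.30 (SE 0.0732). Under the alternative ways of processing the log2 difference lay between 0.28 and 0.33.

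Paox encodes the oxidase that acts on the acetylated products of Sat1 (Entrez 212503, chr7:140115735-140134334). It was the lowest of the 10 genes, at 336 and 244 normalized reads in KO-labelled libraries, against 114 and 132 in WT-labelled ones. Both KO-labelled values lay above the WT-labelled ones, and they differed from each other by a log2 of 0.46, the widest gap between replicates in the set. The mean was 2.35-fold higher (log2 difference 1.21, SE 0.220). The annotated span of Paox overlaps that of Echs1, so that reads there cannot be assigned with certainty. Echs1, an enzyme of fatty acid oxidation, had 4380 and 4220 normalized reads in KO-labelled and 5815 and 6523 in WT-labelled libraries, a difference of the opposite sign.

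Smox encodes spermine oxidase, which turns spermine directly into spermidine (Entrez 228608, chr2:131491858-131525183). Its values were 1798 and 1536 normalized reads in KO-labelled libraries, against 595 and 590 in WT-labelled ones. The lower KO-labelled library was still far above the WT-labelled pair, and the mean was 2.81-fold higher (log2 difference 1.49, SE 0.114). The annotated spans of Smox and Gm30679 overlap at one end, so reads there are likewise uncertain. Per exon length Smox stood 6.75 and 7.93 times as high as Paox in KO-labelled libraries and 6.56 and 5.63 times as high in WT-labelled ones.

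Aoc1 encodes diamine oxidase, a secreted copper enzyme that degrades putrescine and histamine (Entrez 76507, chr6:48895255-48909188). It had 8933 and 8879 normalized reads in KO-labelled libraries, against 1071 and 1128 in WT-labelled ones. Within each group the 2 values were nearly the same, with means of 8906 in KO-labelled and 1099 in WT-labelled libraries. The mean was 8.10-fold higher and the log2 difference was 3.02 (SE 0.0771). Under the 14 alternative ways of processing the log2 difference stayed between 2.98 and 3.06. In the order of all 16253 tested genes by this difference Aoc1 stood at place 344 from the top, Smox at 1169, Paox at 1483 and Srm at 2933.

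**Figure D2:**
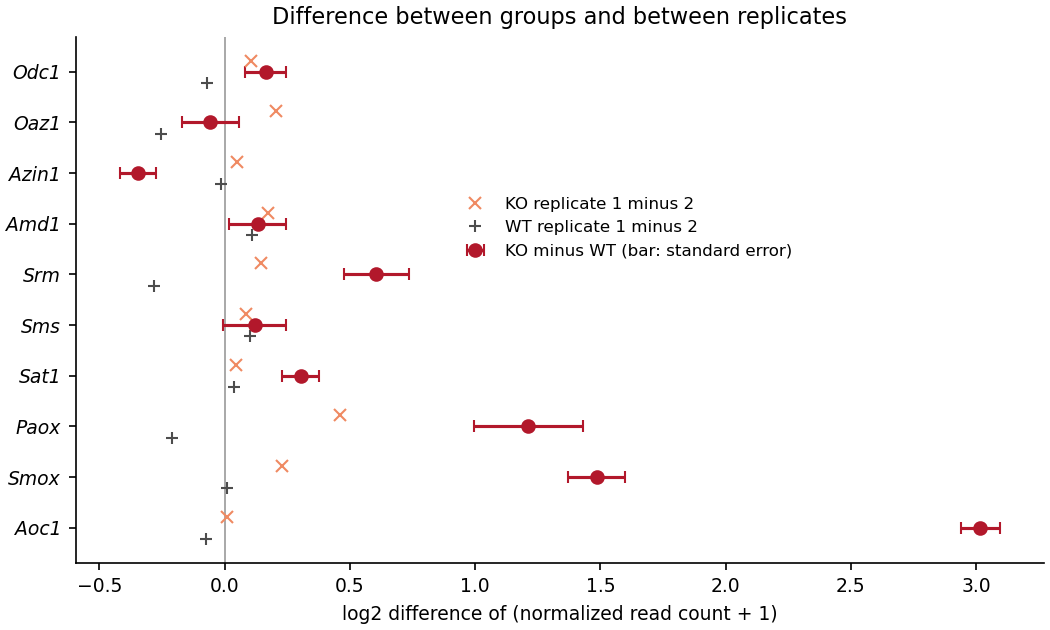
Log2 differences of normalized reads (plus 1) for the 10 genes. Red points are KO-labelled minus WT-labelled with the standard error from limma, and crosses and plus signs are replicate 1 minus replicate 2 within KO-labelled and WT-labelled groups. The group difference exceeded both replicate differences for 8 genes, by little for Odc1 and Sms, and did not for Oaz1 and Amd1.

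Levels of different genes can be compared only per length, here as RPKM (reads per kilobase of exon, scaled by library size), using the merged exons of GENCODE vM21. Merged exons can be longer than the transcript in use, which then understates a level, and the transcripts in use are not known. They came to 2.558 kb for Oaz1, 2.774 kb for Sat1 and 3.256 kb for Aoc1. The order of genes and their shares below rest on these lengths, while the fold of a gene between groups does not. In KO-labelled libraries Aoc1 stood highest of the 10 by this measure at 70.1 and 71.0, before Sat1 at 52.5 and 51.7. Oaz1 followed at 34.1 and 30.2, Azin1 at 27.8 and 27.4 and Odc1 at 27.1 and 25.6. Azin1 and Odc1 were separated there by less than the 2 Odc1 values were from each other.

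Below them in KO-labelled libraries came Srm at 18.3 and 16.9, Smox at 11.8 and 10.3, Amd1 at 7.18 and 6.49, Sms at 2.41 and 2.31 and Paox at 1.75 and 1.29, each apart from the next. The WT-labelled order began with Sat1 at 41.6 and 40.3, then Azin1 at 34.1 in each library and Oaz1 at 29.8 and 35.3, which overlapped Azin1. Odc1 was at 22.4 and 23.3 and Srm at 10.2 and 12.3. Aoc1 stood sixth in WT-labelled libraries, at 8.25 and 8.64, above Amd1 at 6.30 and 5.80, Smox at 3.83 and 3.78, Sms at 2.19 and 2.03 and Paox at 0.584 and 0.672.

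Of the summed per-length level of the 10 genes, Aoc1 made up 27.7% and 29.2% in KO-labelled libraries, against 5.18% and 5.20% in WT-labelled ones. Its level relative to Odc1 was 2.59 and 2.77 in KO-labelled and 0.369 and 0.370 in WT-labelled libraries. Aoc1 thus stood below Odc1 in WT-labelled libraries and above it in KO-labelled ones, while Odc1 itself differed by little. Sat1 relative to Odc1 moved little, at 1.93 and 2.02 in KO-labelled and 1.86 and 1.73 in WT-labelled libraries.

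**Figure D3:**
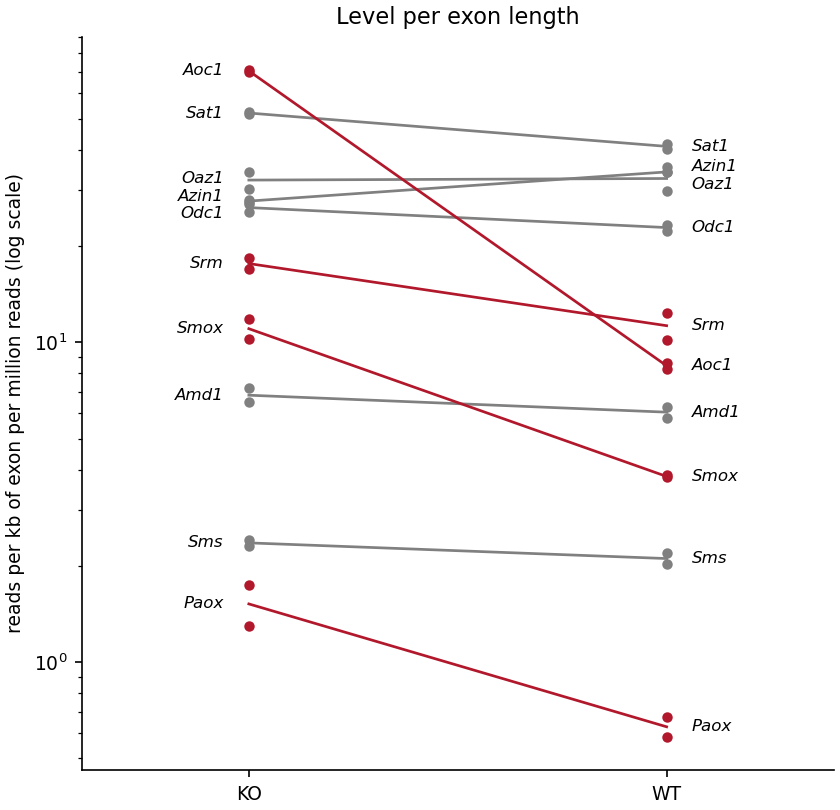
Levels of the 10 genes per exon length (RPKM, log scale), with KO-labelled libraries on the left and WT-labelled ones on the right. Points are libraries and lines join group means, in red for the 4 genes with the largest folds of normalized reads. Aoc1 stands first on the left and sixth on the right, while Sms and Paox are the lowest on both sides.

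The neighbours of Aoc1 on chromosome 6 were looked up within 100 kb of the gene. Tmem176b and Tmem176a, which encode membrane proteins of immune and epithelial cells, were higher in KO-labelled libraries by log2 differences of 1.89 each (limma adjusted p = 1.36e-05 and 1.07e-05). Gm7932, which lies between them and Aoc1, had 1254 and 1226 normalized reads in KO-labelled and 1222 and 1210 in WT-labelled libraries (limma adjusted p = 0.816). On the other side, Doxl1 had at most 2.83 normalized reads in any library, and Doxl2 and Svs1 had 0 reads in each, which allows up to 3 reads per library. Doxl1 and Doxl2 are named as diamine oxidase-like genes, so few reads were assigned to these relatives of Aoc1. An annotated lncRNA, Gm44764, overlaps the span of Aoc1, and with the strand setting unknown its reads cannot be told apart from those of Aoc1 there.

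Genes whose pattern over the 4 libraries lay closest to that of Aoc1 were picked by the Euclidean distance of centred log2 values, among 14042 other genes with a mean of at least 50. They were Msr1 (distance 0.0974), Osmr (0.115), Rtn4rl2 (0.116), Edn1 (0.145) and Igfbp6 (0.150). Osmr, the oncostatin M receptor gene, had 6949 and 7708 normalized reads in KO-labelled and 876 and 906 in WT-labelled libraries. Msr1, a macrophage scavenger receptor gene, had 845 and 890 in KO-labelled and 110 and 113 in WT-labelled libraries. With 4 libraries in 2 groups, such a likeness is mostly a like difference between the groups.

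Beyond the 10 genes, 50 others that feed, drain or sense polyamines were listed by role, of which 47 were tested. This list too was drawn up with earlier results of these data known, so its counts and p-values are descriptions. In KO-labelled libraries 16 rose and 11 fell (limma, adjusted p under 0.05), or 34.0% and 23.4% of those tested, beside the 26.3% and 24.9% over all genes. Their median log2 difference was 0.03. Among the rises, Arg1, Hrh2 and Slc22a3 averaged under 10 in WT-labelled libraries and entered the test only through the KO-labelled ones. Of the rises 12 and of the falls 6 also passed when each library was left out in turn, and without KO replicate 1, as without WT replicate 2, the falls numbered 7.

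**Figure D4:**
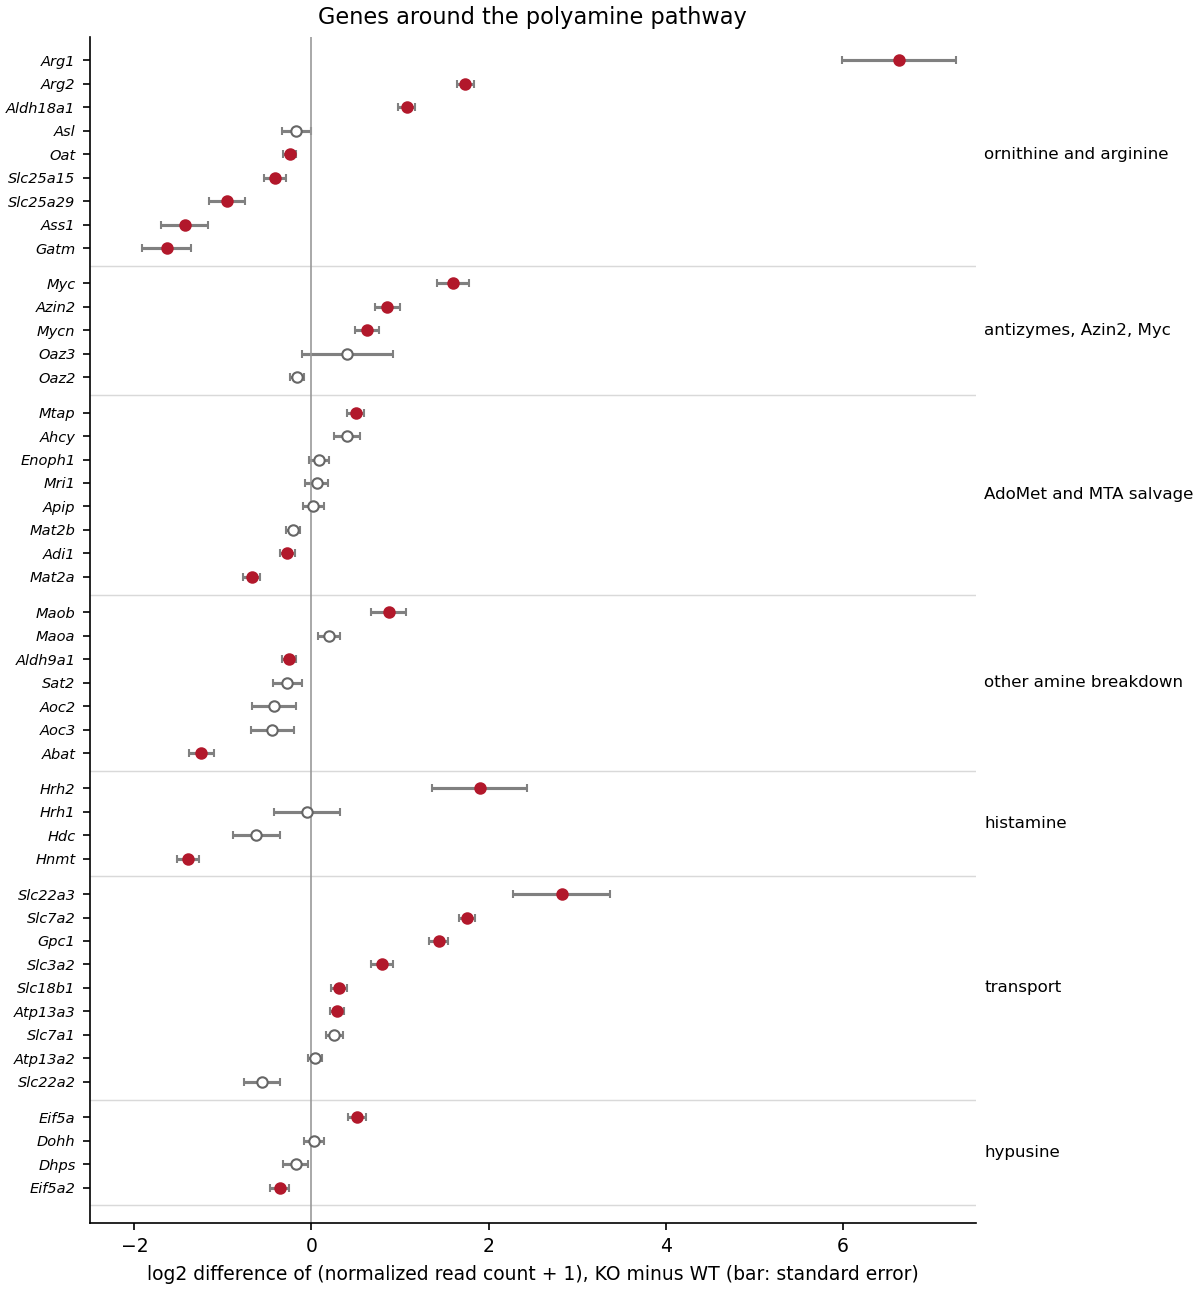
Log2 differences of normalized reads (plus 1), KO-labelled minus WT-labelled, for tested genes around the pathway, grouped by role and sorted within each role. Bars are standard errors, and filled points passed an adjusted p of 0.05 over all genes while open points did not. The widest positive difference is that of Arg1 at 6.64 and the widest negative one that of Gatm at -1.63.

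Ornithine, the starting material, is released from arginine by the arginases, and both arginase genes rose. Arg1, the cytosolic enzyme of liver and of some macrophages, had 389 and 448 normalized reads in KO-labelled libraries, against 7.88 and 0.994 in WT-labelled ones, which gave a log2 difference of 6.64 with an SE of 0.649 (limma adjusted p = 0.000248). Nearly all of its reads came from the KO-labelled libraries, through which alone it averaged 10 or more, so its call supports nothing. The size of the difference turned on the few WT-labelled reads: it was 7.71 without WT replicate 1, 5.56 without WT replicate 2 and 5.59 with 5 added to the values. Arg2, the mitochondrial enzyme of kidney tubules, had 3337 and 3280 in KO-labelled and 1049 and 935 in WT-labelled libraries (log2 difference 1.74, SE 0.0933, limma adjusted p = 2.38e-05). Aldh18a1, which makes the precursor of ornithine and proline from glutamate, rose by 1.08 (limma adjusted p = 0.000147).

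The other 5 of the 8 calls among the 9 tested genes of ornithine and arginine supply were falls. Of the 9 genes 33.3% rose and 55.6% fell, beside 26.3% and 24.9% of all genes tested. Gatm, which spends arginine on creatine synthesis, had 1273 and 1815 normalized reads in KO-labelled and 3507 and 6338 in WT-labelled libraries (log2 difference -1.63, limma adjusted p = 0.00277). Ass1, Slc25a29, Slc25a15 and Oat also fell, with log2 differences of -1.43, -0.95, -0.41 and -0.25 (limma adjusted p = 0.00424, 0.00812, 0.0284 and 0.0311). The call of Oat was lost whichever library was left out (limma adjusted p 0.0671 to 0.161), and that of Slc25a15 in 2 of the 4 cases (up to 0.146). Gatm and Ass1 are genes of the proximal tubule, and the summed counts of 8 proximal tubule markers, 25837 and 41348 in KO-labelled and 66925 and 80691 in WT-labelled libraries, moved with them, also between replicates. None of those 8 markers was at 0 in every library, 6 fell and none rose, and their part in these falls was not tested.

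Regulators of ornithine decarboxylase other than Oaz1 and Azin1 gave 3 rises and no fall among 5 genes. These shares of 60% and 0% stand beside 26.3% and 24.9% of all genes tested. Myc, a transcription factor known to activate Odc1, had 3784 and 3580 normalized reads in KO-labelled libraries, against 1489 and 990 in WT-labelled ones (log2 difference 1.60, SE 0.178, limma adjusted p = 0.000421). Its relative Mycn rose by 0.63 (limma adjusted p = 0.00743). Azin2, the second antizyme inhibitor, had 531 and 481 in KO-labelled and 281 and 276 in WT-labelled libraries (log2 difference 0.86, limma adjusted p = 0.00237), the opposite sign to Azin1. Oaz2, the second antizyme, had a log2 difference of -0.17 and the low Oaz3, known as a testis antizyme, one of 0.41, and neither passed.

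On the S-adenosylmethionine side, 1 of 8 tested genes rose and 2 fell, or 12.5% and 25%, beside 26.3% and 24.9% of all genes tested. Mat2a, the enzyme that makes S-adenosylmethionine outside the liver, had 7394 and 7472 normalized reads in KO-labelled and 12817 and 10992 in WT-labelled libraries (log2 difference -0.68, SE 0.0930, limma adjusted p = 0.00109). Mtap, which recovers the methylthioadenosine left over by Srm and Sms, rose by 0.50 (limma adjusted p = 0.00537). Adi1, further along the same salvage route, had a log2 difference of -0.27, a call lost whichever library was left out (limma adjusted p 0.0589 to 0.170). Ahcy, which clears S-adenosylhomocysteine, had one of 0.40 (limma adjusted p = 0.0536, and 0.0184 without WT replicate 2). Mat1a, the liver enzyme, and Amd2 were too low to be tested.

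Among 7 other genes of acetylation, amine oxidation and the route to GABA, 1 rose and 2 fell. These shares of 14.3% and 28.6% stand beside 26.3% and 24.9% of all genes tested. Abat, which breaks down GABA, fell to 1843 and 2498 normalized reads in KO-labelled libraries, against 4880 and 5306 in WT-labelled ones (log2 difference -1.25, SE 0.143, limma adjusted p = 0.000478). Maob, a monoamine oxidase that also acts on acetylated putrescine, rose by 0.87 (limma adjusted p = 0.00977), and the call was lost without KO replicate 2 (0.0501) and without WT replicate 1 (0.0565). Aldh9a1, which oxidises the aldehyde made from putrescine, fell by 0.25 on the log2 scale (limma adjusted p = 0.0272), a call kept without WT replicate 2 and lost without each of the others (up to 0.131).

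The paralogs of Sat1 and Aoc1 among these genes, Sat2, Aoc2 and Aoc3, had negative log2 differences, opposite in sign to Sat1 and Aoc1. Sat2 had 208 and 221 normalized reads in KO-labelled and 270 and 249 in WT-labelled libraries, which missed the threshold at a log2 difference of -0.27 (limma adjusted p = 0.204). Aoc2, a copper amine oxidase of the retina, and Aoc3, the vascular one, missed it at log2 differences of -0.42 and -0.44. Across the alternative ways of processing these differences ranged from -0.75 to -0.098 for Aoc2 and from -0.80 to -0.081 for Aoc3. Endothelial markers fell in the same libraries, with sums of 19526 and 18464 for 5 genes in KO-labelled and 59129 and 60974 in WT-labelled ones. All 5 passed as lower, beside 24.9% of all genes tested. Their part in the values of Aoc3 was not tested.

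Histamine is the other substrate of diamine oxidase, and 4 of its genes were tested. Hnmt, which inactivates histamine inside cells by methylation, fell to 529 and 638 normalized reads in KO-labelled libraries, against 1565 and 1488 in WT-labelled ones (log2 difference -1.39, SE 0.123, limma adjusted p = 0.000160). The histamine-degrading genes thus differed in opposite directions. Hdc, which makes histamine, had a log2 difference of -0.62 and did not pass (limma adjusted p = 0.0868, and 0.0333 after quantile normalization). The receptor gene Hrh2 rose by 1.90 (limma adjusted p = 0.0233), and by 1.57 without WT replicate 2. Its counts were low, 31.1 and 16.0 in KO-labelled and 6.89 and 3.98 in WT-labelled libraries. Hrh2 averaged 10 or more only through the KO-labelled libraries, so its call supports nothing. Hrh1 had a log2 difference of -0.05. Mast cells store histamine, and 6 of their markers summed to 64.4 and 140 normalized reads in KO-labelled and 2.95 and 11.9 in WT-labelled libraries, with Fcer1a at 1.07 or less throughout. Ms4a2, a subunit of the same IgE receptor, had 0 and 0.942 in KO-labelled and 0.985 and 6.96 in WT-labelled libraries, the opposite order. Of these markers 3 were high enough to be tested, Cpa3, Tpsb2 and Cma1. All 3 were called higher, beside 26.3% of all genes tested. They had at most 2.98 normalized reads in any WT-labelled library and entered the test only through the KO-labelled ones. Markers so low in WT-labelled libraries could be tested only if they were higher in KO-labelled ones, so these calls support nothing. The part of the mast cell markers in the values of Hrh2 was not tested.

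Of 10 genes of polyamine and arginine transport, 6 rose and none fell, or 60% and 0%, beside 26.3% and 24.9% of all genes tested. Slc7a2, a cationic amino acid transporter that takes up arginine and ornithine, had 3715 and 4177 normalized reads in KO-labelled libraries, against 1148 and 1179 in WT-labelled ones (log2 difference 1.76, SE 0.0916, limma adjusted p = 2.11e-05). Gpc1, a heparan sulfate proteoglycan linked to polyamine uptake, had 4884 and 4366 in KO-labelled and 1577 and 1844 in WT-labelled libraries (log2 difference 1.44, SE 0.106, limma adjusted p = 7.61e-05). Slc3a2, the heavy chain of several amino acid exchangers, rose by 0.80 (limma adjusted p = 0.00158). Slc22a3, an organic cation transporter, was low, with 31.1 and 82.0 in KO-labelled and 7.88 and 4.97 in WT-labelled libraries (log2 difference 2.83, SE 0.550, limma adjusted p = 0.00503). Its difference was 3.51 without KO replicate 1 and 2.14 without KO replicate 2. Slc22a3 averaged 10 or more only through the KO-labelled libraries, so its call supports nothing.

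The other transport genes that rose were Slc18b1, a vesicular polyamine transporter, by 0.31 and Atp13a3, a polyamine-transporting P-type ATPase, by 0.29, and leaving out a library lost the call in 3 of 4 cases for each (limma adjusted p up to 0.120 and 0.108). Atp13a2, the lysosomal polyamine exporter, had a log2 difference of 0.04. Slc22a2, an organic cation transporter of the proximal tubule, missed the threshold at a log2 difference of -0.56 (limma adjusted p = 0.0567) and passed it without KO replicate 2 (0.00387).

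Spermidine also donates the group that turns a lysine of eIF5A into hypusine. Eif5a, the abundant translation factor gene, rose to 14601 and 13019 normalized reads in KO-labelled libraries, against 8953 and 10437 in WT-labelled ones (log2 difference 0.51, SE 0.104, limma adjusted p = 0.00592). Its paralog Eif5a2 fell by 0.36 on the log2 scale (limma adjusted p = 0.0272), a call lost whichever library was left out (limma adjusted p 0.0625 to 0.135). Dhps and Dohh, the enzymes that make hypusine, missed the threshold at log2 differences of -0.18 and 0.03 (limma adjusted p = 0.331 and 0.834).

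Markers of several cell types differed between the same libraries. The sum of 8 macrophage and dendritic cell markers, all of which rose, was 55388 and 49999.7 normalized reads in KO-labelled and 15616 and 12328 in WT-labelled libraries, and that of 5 injured tubule markers, which also all rose, was 139645 and 106773 in KO-labelled and 5807 and 5685 in WT-labelled libraries. All 4 principal cell and all 4 intercalated cell markers fell. Markers of the thick ascending limb of the loop of Henle were mixed. Slc12a1 and Kcnj1 fell (log2 differences -2.84 and -2.49), Cldn16 rose by 0.28 and Umod was not called at 0.26. Over all genes tested 26.3% rose and 24.9% fell. None of the markers in these lists was at 0 in every library. The part of these shifts in the values of Aoc1, Smox, Arg1 and the other genes was not tested, and counts of whole tissue do not show which cells held the transcripts.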

How the data were processed

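Libraries of 4 medulla samples were grouped by their titles. Each gene has 1 signal value per library in the deposited table, a read count that the authors divided by a size factor. This is read from the values: within each column all are whole multiples of 1 step (0.942 to 1.07), and 100% came out whole within 0.001 after division. The step of WT replicate 2, 0.994, is close to 1, but none of its non-zero values was whole before division. The submitters' processing notes name DESeq2 (version 2.11.40.7), featureCounts (version 2.0.1), HISAT2 (version 2.2.1) and fastp (version 0.20.1), with the mm10/GRCm38 build. Not given in the sources used here are the annotation, the strand setting and the handling of multi-mapping reads.

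Symbols for 25275 of 27179 Entrez IDs came from RefSeq GRCm38.p6. Using R 4.3.3, the two-sided test of limma 3.58.1 with a trended variance was run on log2(value + 1) of the 16253 genes averaging 10 or more. P-values were adjusted over all of them by Benjamini-Hochberg, with calls at 0.05. Residual degrees of freedom were 2 for each gene and 6.96 once pooled. The quasi-likelihood test of edgeR 4.0.16 called 8303 genes from the recovered reads, and DESeq2 1.42.0 called 7823. Replicates differed beyond counting noise (chi-square per degree of freedom 16.9 for the KO-labelled pair and 22.3 for the WT-labelled pair). The limit for a count of 0 covers counting error only.

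The 10 genes and all lists were chosen with earlier results of these data known. From each role list up to 4 genes with the smallest adjusted p and all paralogs of the 10 genes were named; Oat, Ass1, Slc25a15, Slc25a29, Atp13a2, Atp13a3, Slc18b1, Slc22a2, Mat1a, Echs1 and the neighbours of Aoc1 were named after their values were seen. A gene of the transport list is included in the counts but not reported here. Alternatives covered pseudocounts, filters, scaling, variance models, the count tools, a replicate block and leaving out each library, where a group of 1 library borrows its spread from the other group.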

Additional observations from a re-analysis of the deposited data

How the results depend on the processing

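Of the 10 genes, Azin1 moved by more than its replicate spread after quantile normalization (-0.29), and Oaz1, near 0 as reported, changed sign without KO replicate 2 (0.044) and without WT replicate 2 (0.069). Over all genes the calls stayed within 1.5 times of 4277 higher and 4051 lower under every alternative, and were fewest when a library was left out (3175 higher without KO replicate 1, 3084 lower without WT replicate 1). In the list of 50 related genes the falls, 11 as reported, numbered 7 with no variance trend and 7 to 10 when a library was left out; the rises, 16 as reported, numbered 13 to 16. Among the related genes named by the rule, Dohh and Hrh1, both uncalled, changed sign: leaving out a library gave log2 differences of -0.085 to 0.15 for Dohh and -0.37 to 0.26 for Hrh1. With DESeq2 the call of Hrh2 was lost (adjusted p = 0.0719). The replicate numbers gave no sign of pairing, with a correlation of -0.0564 across genes between same-numbered deviations. With the replicate block the list had 14 rises and 8 falls, and over all genes 3810 were higher and 3619 lower. Among the genes named by the rule it lost the calls of Adi1, Aldh9a1 and Eif5a2 and gained that of Aoc3 (adjusted p = 0.0175). With 2 samples a group, differences near the replicate spread, such as those of Odc1, Oaz1, Amd1 and Sms, could not be resolved.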
